A study of Mus musculus with 8 samples.

Results

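RNA-seq counts of mouse gastrocnemius muscle were examined for 10 genes that are known from resident macrophages and from antigen presentation. They are Csf1r, the 3 complement genes C1qa, C1qb and C1qc, the receptors Cd68, Cd163 and Mrc1, and the MHC class II genes Cd74, H2-Aa and H2-Ab1. The genes were taken by symbol, and the choice was made with earlier results of these data known. Each of the 10 stands on 1 of the 27041 rows of the count table, and all 10 were among the 11364 rows with a mean count above 50 that were tested.

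The muscles came from male mice of 9 weeks on the C57BL/6J background. Both groups carried LSD1 L2/L2 alleles, in which LoxP sites flank exon 1 of Kdm1a, the gene of the histone demethylase LSD1. Ctrl mice had no Cre, and LSD1skm-/- mice also carried HSA-Cre, in which a skeletal actin promoter drives the recombinase in myofibers, so macrophages are not the cells it was directed at. The labels give the tissue as skeletal muscle, and the study's methods name the gastrocnemius. The labels describe 8 libraries, 4 per group. Ctrl replicates 1 to 4 and LSD1skm-/- replicates 1 and 2 were analyzed, and LSD1skm-/- replicates 3 and 4 were not analyzed here. Neither source states how many animals stand behind a library, so the p-values measure the spread between these libraries, which may in part be technical.

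Skeletal muscle holds resident macrophages between its fibers, where they clear debris and take part in repair. Their survival depends on CSF1R, the receptor for the cytokines CSF1 and IL-34. C1qa, C1qb and C1qc encode the 3 chains of C1q, which starts the classical complement pathway and which tissue macrophages secrete. Cd163 encodes the receptor for hemoglobin bound to haptoglobin, Mrc1 the mannose receptor, and Cd68 a glycoprotein of endosomes and lysosomes. H2-Aa and H2-Ab1 encode the alpha and beta chains of I-A, an MHC class II molecule that displays peptides to CD4+ T cells, and Cd74 the invariant chain that guards its groove until it reaches the endosome. MHC class II genes are read in macrophages, dendritic cells and B cells, whereas C1q genes are not typical of B cells.

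The libraries held 30654828 to 41278769 counts, and 3 facts about them bear on every comparison. Kdm1a had 22.0 to 28.1 CPM in Ctrl replicates 1 to 3, 2.96 and 3.48 CPM in the LSD1skm-/- libraries, and 3.66 CPM in the library labelled Ctrl replicate 4, which goes against its label. CPM are reads of a gene scaled to a common library size with edgeR's TMM factors. Comparisons are therefore given with all 6 libraries and without that one. B cell markers also set libraries apart: the summed level of Cd79a, Cd79b, Ms4a1 and Cd22 was 18.6 and 18.3 CPM in Ctrl replicates 1 and 2, from 641 and 594 reads, and 0.174 to 0.347 CPM in the other 4 libraries, from 6 to 15 reads. Values without Ctrl replicates 1 and 2 were therefore added after the data were seen. The 6 myofiber markers summed to between 123200 and 149300 CPM, so the libraries carried the muscle of their label. The 10 genes themselves summed to 200.7, 163.3, 81.3 and 125.3 CPM in Ctrl replicates 1 to 4 and to 126.6 and 183.7 CPM in the LSD1skm-/- libraries, so transcripts of macrophages and of MHC class II were present in every library. In whole muscle, fewer cells of a type and less RNA per cell cannot be told apart.

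None of the 10 genes passed an adjusted p of 0.05 in edgeR's quasi-likelihood test, whether with all 6 libraries, without the library labelled Ctrl replicate 4, or without Ctrl replicates 1 and 2. The share of all tested genes called was 0% with all 6 libraries, 5.39% without the library labelled Ctrl replicate 4 (612 genes, of which the 496 higher in LSD1skm-/- muscle were 4.36% of all tested), and 0% without Ctrl replicates 1 and 2. Those 3 fits had 1011, 2292 and 382 genes at an unadjusted p under 0.05, and DESeq2 called 46 genes and no member with all 6 libraries. The study's rule is an unadjusted p under 0.05 with a fold change above 1.3 or below 0.77. The study took its p from DESeq2, and here the rule was applied to the edgeR p. So applied, it took C1qa alone with all 6 libraries, beside 6.31% of all tested genes (3.43% higher). Without the library labelled Ctrl replicate 4 it took no member, beside 15.2% of all tested genes. In no member were the groups free of overlap, beside 17.8% of all tested genes with all 6 libraries and 37.7% without the library labelled Ctrl replicate 4.

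The median log2 fold change of the 10 genes was 0.29 with all 6 libraries and 0.36 without the library labelled Ctrl replicate 4, beside -0.008 and -0.006 over all tested genes. In both fits 7 of the 10 values were above 0, and 48.6% and 49.0% of all tested genes were. The 7 were Csf1r, the 3 C1q genes and the 3 receptors, and the other 3 were the MHC class II genes, of which H2-Ab1 was at 0.005 with scaling by library size alone. Without Ctrl replicates 1 and 2 all 10 values were above 0, with a median of 0.54 beside -0.01 over all tested genes. With all 6 libraries as the base, the median was -0.063 without LSD1skm-/- replicate 2, so its side of 0 rests on that library. It was 0.67 without LSD1skm-/- replicate 1, 0.47 without Ctrl replicate 1 and 0.18 without Ctrl replicate 3.

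**Figure D1:**
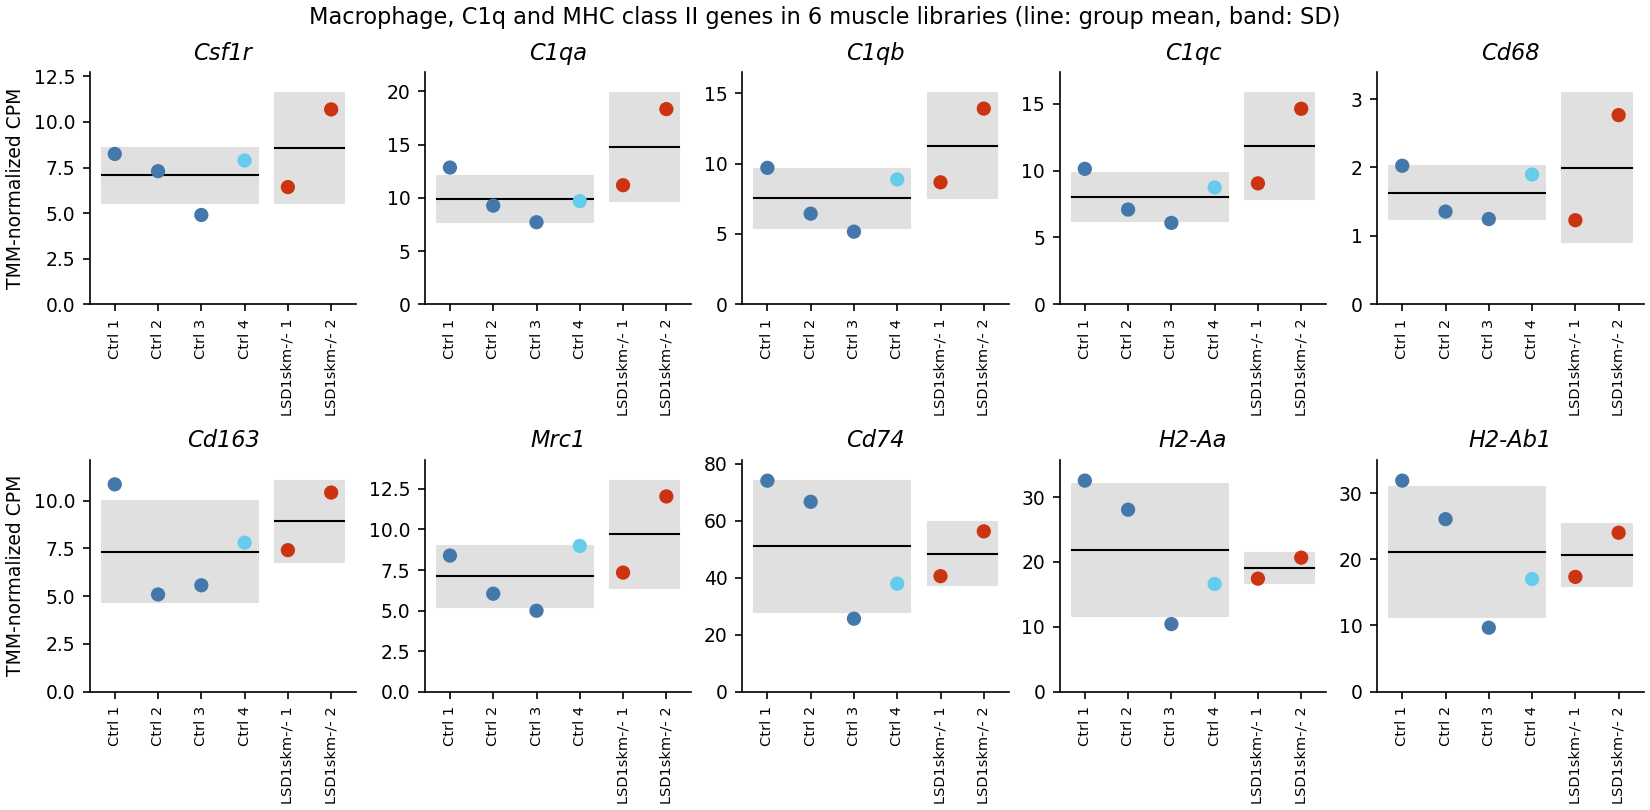
TMM-normalized CPM (vertical axes, linear from 0) of the 10 genes in Ctrl replicates 1 to 3 (dark blue), the library labelled Ctrl replicate 4 (light blue) and LSD1skm-/- replicates 1 and 2 (red), with each group's mean (line) and SD (band). In every panel the groups overlap. LSD1skm-/- replicate 2 is the highest library for 6 genes, and Ctrl replicate 1 for Cd163 and the 3 MHC class II genes.

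Csf1r (chr18:61100598-61132149 of GRCm38, plus strand) had 8.25, 7.30, 4.90 and 7.89 CPM in Ctrl replicates 1 to 4 and 6.43 and 10.7 CPM in LSD1skm-/- replicates 1 and 2. The LSD1skm-/- libraries lay on either side of 3 of the 4 Ctrl libraries, and only Ctrl replicate 3 was below both. The means were 7.08 ± 1.51 (SD, n = 4) and 8.56 ± 3.01 (SD, n = 2) CPM. The log2 fold change was 0.27 (standard error 0.26, 95% interval -0.34 to 0.89, edgeR adjusted p = 0.740) with all 6 libraries and 0.33 (edgeR adjusted p = 0.551) without the library labelled Ctrl replicate 4. It was -0.14 without LSD1skm-/- replicate 2. The ligands of the receptor also missed the threshold: Csf1 ranged from 4.58 to 8.13 CPM in Ctrl and had 6.68 and 6.54 CPM in LSD1skm-/- muscle, and Il34 ranged from 3.08 to 4.17 CPM in Ctrl and had 3.21 and 3.59 CPM in LSD1skm-/- muscle.

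The C1q genes lie side by side on the minus strand of chromosome 4 in GRCm38, C1qb at chr4:136880129-136886187, C1qc at chr4:136889804-136893065 and C1qa at chr4:136895917-136898803. The targeted gene is on the same strand of the same chromosome, with 0.277 megabases between Kdm1a and C1qb. The floxed allele is present in both groups.

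C1qa had 12.9, 9.27, 7.71 and 9.69 CPM in Ctrl replicates 1 to 4 and 11.2 and 18.3 CPM in LSD1skm-/- replicates 1 and 2. Only Ctrl replicate 1 reached into the LSD1skm-/- values, above LSD1skm-/- replicate 1. Its log2 fold change was 0.58 with all 6 libraries (standard error 0.25, 95% interval 0.008 to 1.15, edgeR unadjusted p = 0.0474, adjusted p = 0.557) and 0.57 (edgeR adjusted p = 0.279) without the library labelled Ctrl replicate 4.

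C1qb had 9.69, 6.44, 5.16 and 8.87 CPM in Ctrl replicates 1 to 4 and 8.67 and 13.9 CPM in LSD1skm-/- replicates 1 and 2, and C1qc had 10.1, 7.09, 6.09 and 8.73 CPM against 9.04 and 14.6 CPM. LSD1skm-/- replicate 2 was again above every other library and LSD1skm-/- replicate 1 lay inside the Ctrl range for both genes. The log2 fold change of C1qb was 0.58 (standard error 0.28, 95% interval -0.08 to 1.25, edgeR adjusted p = 0.565) with all 6 libraries and 0.67 (edgeR adjusted p = 0.253) without the library labelled Ctrl replicate 4. That of C1qc was 0.56 (standard error 0.25, 95% interval -0.02 to 1.15, edgeR adjusted p = 0.557) and 0.61 (edgeR adjusted p = 0.253). Without LSD1skm-/- replicate 2 the values of C1qb and C1qc were 0.20 and 0.17.

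The 3 chains of C1q kept close proportions in every library. Per read of C1qa there were 0.669 to 0.915 reads of C1qb and 0.764 to 0.901 reads of C1qc, and the library labelled Ctrl replicate 4 had the highest value of both. C1q reads per Csf1r read were 3.12 to 3.96 in the Ctrl libraries and 4.49 and 4.39 in LSD1skm-/- replicates 1 and 2. The groups did not overlap in this ratio, which was singled out after its values were seen and not tested. Over single genes, 17.8% of all tested had no overlap between the groups with all 6 libraries. In reads of Cd163, Mrc1 and Cd68 per Csf1r read the groups overlapped.

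PU.1, the product of Spi1, is a transcription factor that macrophages need, and the letters GAGGAA hold the core of its binding sequence. The 150 bases before the start of C1qb, on the minus strand at chr4:136886201-136886350 (RefSeq, GRCm38.p6), are shown because this core stands in them, in capitals, 30 to 25 bases before the start.
C1qb: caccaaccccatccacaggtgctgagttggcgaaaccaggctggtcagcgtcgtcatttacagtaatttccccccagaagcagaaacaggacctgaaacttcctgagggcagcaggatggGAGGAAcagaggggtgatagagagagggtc
Read on both strands, GAGGAA is in 23.3% of all 32851 RefSeq promoters over the 250 bases before the start, so such a match is common. RefSeq promoters were found for 6 of the 10 genes, and of those C1qb, C1qc, Mrc1 and Cd68 held the letters and Cd163 and H2-Aa did not. Spi1 itself had 0.630 and 1.54 CPM in LSD1skm-/- muscle and 0.609 to 1.21 CPM in Ctrl, below the count needed for the test.

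The 3 receptors followed the C1q genes in most libraries. Cd68 (chr11:69664213-69666153, minus strand) was the lowest of the 10, with 39 to 104 reads per library. It had 2.02, 1.35, 1.25 and 1.90 CPM in Ctrl replicates 1 to 4 and 1.23 and 2.77 CPM in LSD1skm-/- replicates 1 and 2, so its lowest and its highest library were both LSD1skm-/-. Its log2 fold change was 0.29 (standard error 0.37, 95% interval -0.56 to 1.15, edgeR adjusted p = 0.803) with all 6 libraries and 0.38 (edgeR adjusted p = 0.624) without the library labelled Ctrl replicate 4. It was -0.41 without LSD1skm-/- replicate 2.

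Cd163 (chr6:124304656-124330527, plus strand) had 10.9, 5.08, 5.57 and 7.80 CPM in Ctrl replicates 1 to 4 and 7.40 and 10.4 CPM in LSD1skm-/- replicates 1 and 2. It was the only one of the 7 macrophage and C1q genes with its highest value in a Ctrl library. The log2 fold change was 0.28 (standard error 0.31, 95% interval -0.44 to 1.01, edgeR adjusted p = 0.773) and 0.32 (edgeR adjusted p = 0.647) without the library labelled Ctrl replicate 4.

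Mrc1 (chr2:14229392-14332057, plus strand) had 8.39, 6.04, 4.99 and 8.98 CPM in Ctrl replicates 1 to 4 and 7.34 and 12.0 CPM in LSD1skm-/- replicates 1 and 2. LSD1skm-/- replicate 1 lay in the middle of the Ctrl values and LSD1skm-/- replicate 2 above them. The log2 fold change was 0.45 (standard error 0.28, 95% interval -0.21 to 1.11, edgeR adjusted p = 0.632) and 0.59 (edgeR adjusted p = 0.282) without the library labelled Ctrl replicate 4. Without LSD1skm-/- replicate 2 it was 0.05.

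H2-Ab1 (chr17:34257689-34269419, plus strand) and H2-Aa (chr17:34282744-34287823, minus strand) lie 0.0133 megabases apart, and H2-Eb1, which encodes a beta chain of the class II molecule I-E, follows at chr17:34305867-34316674. MHC class II promoters are known for an X and a Y box, which bind the RFX complex and NF-Y and recruit the coactivator CIITA. The 150 bases before the starts of H2-Aa (minus strand, chr17:34287824-34287973) and H2-Eb1 (plus strand, chr17:34305717-34305866), from RefSeq on GRCm38.p6, are shown because both hold the Y box letters CTGATTGG, in capitals, which contain an inverted CCAAT.
H2-Aa: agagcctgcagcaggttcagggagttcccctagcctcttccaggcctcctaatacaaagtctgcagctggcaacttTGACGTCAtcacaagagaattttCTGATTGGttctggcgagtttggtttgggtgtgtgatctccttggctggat
H2-Eb1: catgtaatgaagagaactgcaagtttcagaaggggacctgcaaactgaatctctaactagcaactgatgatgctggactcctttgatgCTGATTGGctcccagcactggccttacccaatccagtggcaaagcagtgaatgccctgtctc
The Y box letters end 44 bases before the start of H2-Aa and 55 bases before that of H2-Eb1, and on both strands they are in 3.83% of all promoters over the 250 bases before the start. The earlier capitals in H2-Aa, TGACGTCA, are the X2 letters, which 1.55% of all promoters hold.

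H2-Aa had 32.6, 28.1, 10.4 and 16.6 CPM in Ctrl replicates 1 to 4 and 17.4 and 20.7 CPM in LSD1skm-/- replicates 1 and 2. H2-Ab1 had 31.9, 26.1, 9.65 and 17.0 CPM against 17.3 and 24.0 CPM, and Cd74 (chr18:60803848-60812652, plus strand) had 74.0, 66.6, 25.6 and 37.9 CPM against 40.5 and 56.3 CPM. In all 3 genes both LSD1skm-/- libraries lay between the Ctrl libraries: below Ctrl replicates 1 and 2 and above Ctrl replicate 3 and the library labelled Ctrl replicate 4.

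The log2 fold changes with all 6 libraries were -0.20 for H2-Aa (standard error 0.41, 95% interval -1.15 to 0.75, edgeR adjusted p = 0.881) and -0.03 for H2-Ab1 (standard error 0.42, 95% interval -1.004 to 0.94, edgeR adjusted p = 0.984). For Cd74 the value was -0.08 (standard error 0.40, 95% interval -1.01 to 0.86, edgeR adjusted p = 0.962). Without the library labelled Ctrl replicate 4 they were -0.31, -0.12 and -0.19. Without Ctrl replicates 1 and 2, the libraries with the B cell markers, they turned to 0.49 for H2-Aa, 0.62 for H2-Ab1 and 0.60 for Cd74 (edgeR adjusted p = 0.995 for each). That fit kept as Ctrl only replicate 3, the lowest library for these 3 genes, and the library labelled Ctrl replicate 4. Without LSD1skm-/- replicate 1 alone the values were -0.09 for H2-Aa, 0.18 for H2-Ab1 and 0.14 for Cd74. The direction of the 3 genes therefore depended on which libraries were used.

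**Figure D2:**
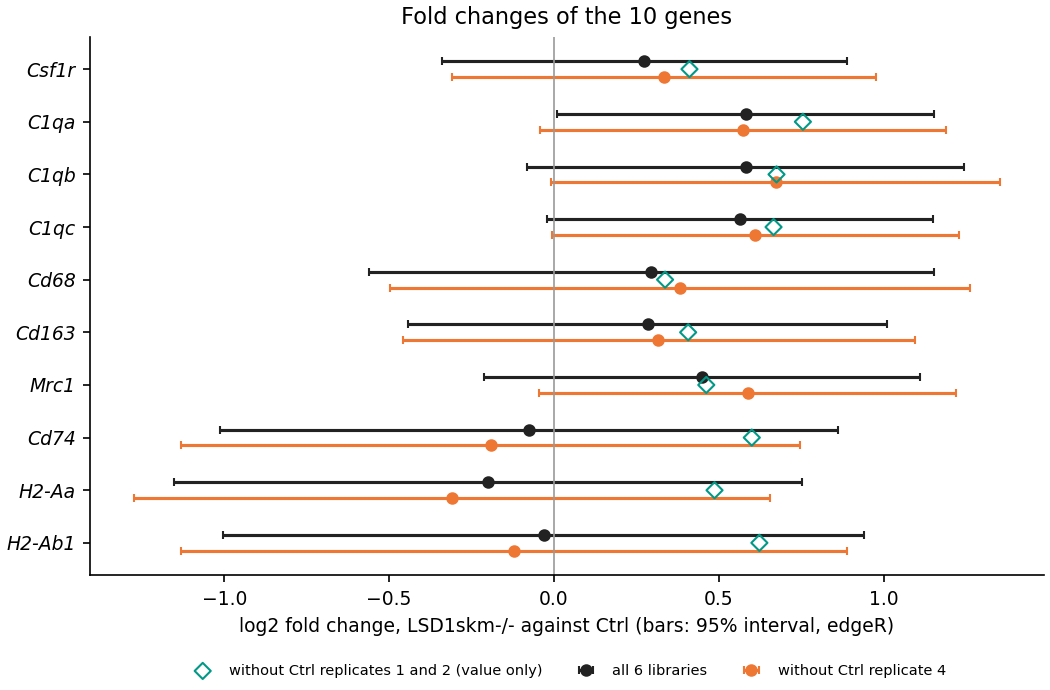
Log2 fold change of the 10 genes, LSD1skm-/- against Ctrl (horizontal axis), with all 6 libraries (black) and without the library labelled Ctrl replicate 4 (orange), each with its 95% interval from edgeR, and the values without Ctrl replicates 1 and 2 (open diamonds). With all 6 libraries the interval of C1qa, from 0.008 to 1.15, is the one that excludes 0. The diamonds of Cd74, H2-Aa and H2-Ab1 stand right of 0 and their other values left of it.

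The 10 genes thus varied across libraries in 2 patterns, described here by Pearson's r of log2 CPM over the 6 libraries, which share their scaling factors. Within the 7 macrophage and C1q genes r was 0.72 to 0.99 (median 0.89 over 21 pairs), and within the 3 MHC class II genes it was 0.98 to 0.99. Between the sets it was 0.37 to 0.77 (median 0.50 over 21 pairs). The split into these sets was made after the values were seen. The highest library was 2.13 to 3.304 times the lowest for each gene, and the widest range was that of H2-Ab1.

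**Figure D3:**
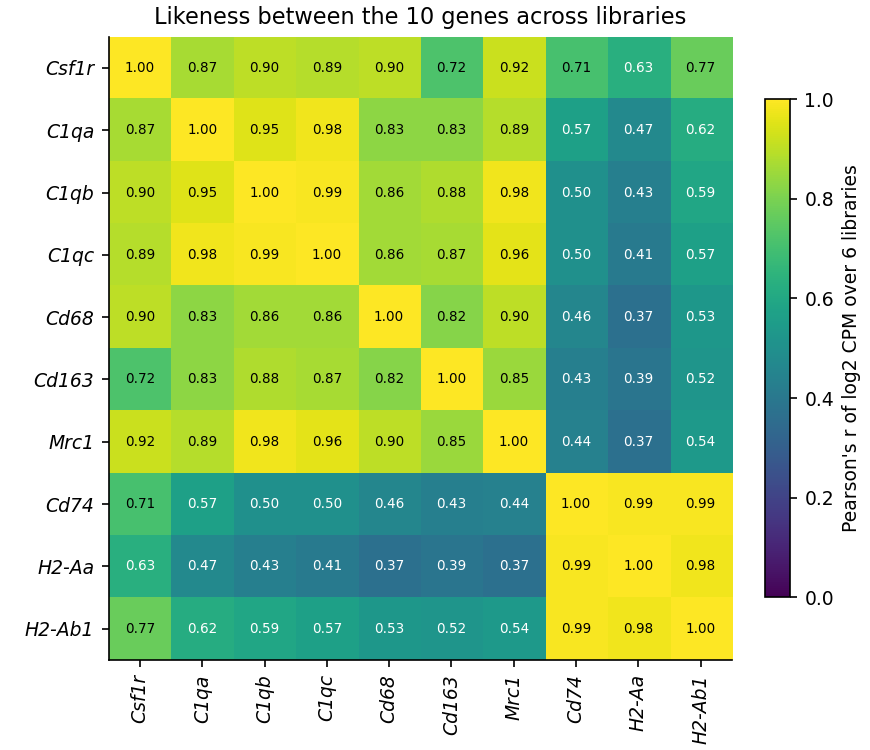
Pearson's r of log2 CPM over the 6 libraries for every pair of the 10 genes (color, from 0 to 1, with r printed in each cell). The 3 MHC class II genes form a block of 0.98 to 0.99, and their r with the other 7 genes is 0.37 to 0.77.

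Reads on the MHC class II genes Cd74, H2-Aa and H2-Ab1 per C1q read were 4.24 and 5.297 in Ctrl replicates 1 and 2, 2.41 and 2.62 in Ctrl replicate 3 and the library labelled Ctrl replicate 4, and 2.61 and 2.15 in LSD1skm-/- replicates 1 and 2. The libraries with the higher ratio were those with the B cell markers. Ighm, the immunoglobulin heavy chain gene of the B cell list, had 93.5 and 97.6 CPM in these 2 libraries and 36.03 to 58.7 CPM in the others. In the others Cd79b stayed between 0.0870 and 0.229 CPM, and Cd79a, Cd22 and Ms4a1 were at 0 in some. T cell markers moved the same way, with 7 genes summing to 6.42 and 4.84 CPM in Ctrl replicates 1 and 2 and to 0.378 to 0.503 CPM in the others, with 2 to 4 of the 7 at 0 there. The part of B and T cells in the MHC class II levels was not tested, and the ratio was 2.15 to 2.62 in all 4 libraries in which Cd79a, Cd79b, Ms4a1 and Cd22 were low.

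**Figure D4:**
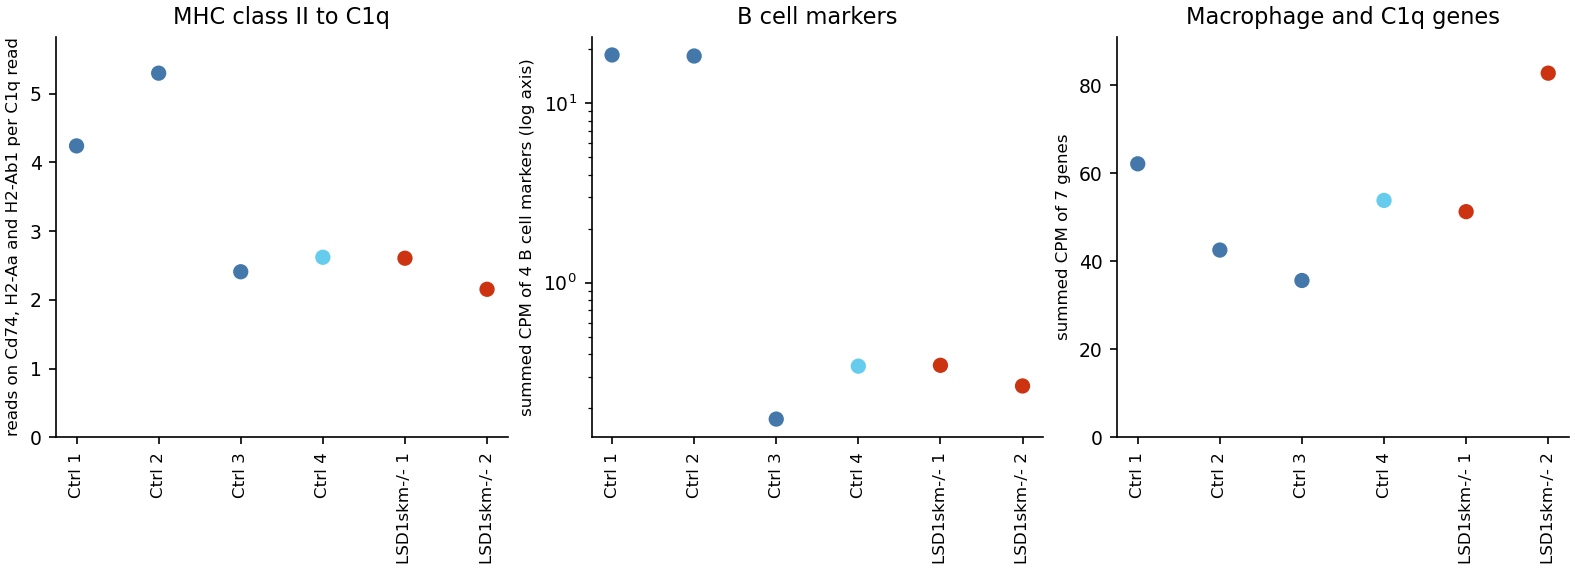
Reads on Cd74, H2-Aa and H2-Ab1 per read on C1qa, C1qb and C1qc (left, linear axis), summed CPM of the 4 B cell markers Cd79a, Cd79b, Ms4a1 and Cd22 (middle, log axis), and summed CPM of the 7 macrophage and C1q genes (right, linear axis) in each library, colored as Ctrl replicates 1 to 3 (dark blue), the library labelled Ctrl replicate 4 (light blue) and LSD1skm-/- (red). Ctrl replicates 1 and 2 stand apart in the left and middle panels, at ratios of 4.24 and 5.297, and not in the right panel, where values run from 35.6 to 82.8 CPM.

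Levels of different genes were compared per kilobase of merged exons. In Ctrl, Cd74 had the highest level, 30.4 ± 13.7 CPM per kilobase (SD, n = 4), followed by C1qa with 9.50 ± 2.07, H2-Ab1 with 8.24 ± 3.82, C1qb with 6.93 ± 1.93, H2-Aa with 5.77 ± 2.68 and C1qc with 4.15 ± 0.924. Neighbors from C1qa to C1qc in this order differed by less than the larger of their SDs. Cd163, Cd68, Csf1r and Mrc1 had 1.11 to 1.34 CPM per kilobase, with neighbors again within their SDs. With the length of the longest coding transcript, H2-Aa and H2-Ab1 moved to 19.4 and 17.5 CPM per kilobase and passed C1qa, so their place in the order depends on the length used. In LSD1skm-/- muscle Cd74 was likewise the highest, at 28.8 ± 6.63 CPM per kilobase (SD, n = 2), and C1qa had 14.2 ± 4.87.

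Other genes of the same pathways were read from lists. Of 16 tested genes of macrophage identity and the CSF1 axis none passed the adjusted threshold in any of the 3 fits. Without Ctrl replicates 1 and 2, 13 of the 16 had a value above 0, with a median log2 fold change of 0.48. With all 6 libraries 8 of the 16 did, with a median of 0.002. The highest value was that of Adgre1, which encodes the macrophage marker F4/80, with 1.505, 1.23, 0.841 and 1.55 CPM in Ctrl replicates 1 to 4 and 1.70 and 2.13 CPM in LSD1skm-/- muscle. The groups did not overlap in Adgre1, nor in 17.8% of all tested genes with all 6 libraries. The log2 fold change of Adgre1 was 0.57 (edgeR adjusted p = 0.571) with all 6 libraries. It was 0.69 (edgeR adjusted p = 0.232) without the library labelled Ctrl replicate 4. The lowest was that of Ptprc, which encodes CD45 of all white blood cells, with 9.43 and 7.86 CPM in Ctrl replicates 1 and 2 and 1.101 to 2.31 CPM in the other 4 libraries. Its log2 fold change was -1.17 (edgeR adjusted p = 0.654) with all 6 libraries and 0.50 (edgeR adjusted p = 0.995) without Ctrl replicates 1 and 2. It passed the threshold with the replicate block, a term for the replicate number (edgeR adjusted p = 9.09e-05). It also passed without Ctrl replicate 3 and the library labelled Ctrl replicate 4 (edgeR adjusted p = 0.00217). Replicates 3 and 4 have Ctrl libraries only, so both fits take the group effect from replicates 1 and 2 of each group.

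Among 14 tested genes of resident macrophage subsets and scavenger receptors, 3 were called higher in LSD1skm-/- muscle without the library labelled Ctrl replicate 4. In that fit 4.36% of all tested genes were called higher. With all 6 libraries and group as the only term none of the 14 was called. The median log2 fold change was 0.35 with all 6 libraries and 0.47 without that library. Mgl2, a C-type lectin of macrophages and dendritic cells, had 2.199, 1.69 and 1.62 CPM in Ctrl replicates 1 to 3, 3.22 CPM in the library labelled Ctrl replicate 4 and 3.91 and 4.31 CPM in LSD1skm-/- muscle. Its log2 fold change was 1.16 (standard error 0.20, edgeR adjusted p = 0.0208) without the library labelled Ctrl replicate 4 and 0.90 (edgeR adjusted p = 0.557) with it.

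Gas6, the ligand of the receptors TYRO3, AXL and MERTK, had 86.8, 79.1 and 87.2 CPM in Ctrl replicates 1 to 3, 103.9 CPM in the library labelled Ctrl replicate 4 and 114.1 and 119.1 CPM in LSD1skm-/- muscle. Its log2 fold change was 0.47 (standard error 0.10, edgeR adjusted p = 0.0379) without that library and 0.39 (edgeR adjusted p = 0.557) with it. Cbr2, a carbonyl reductase, had 22.8, 28.1 and 21.9 CPM in Ctrl replicates 1 to 3, 57.2 CPM in the library labelled Ctrl replicate 4 and 42.1 and 44.0 CPM in LSD1skm-/- muscle. Its log2 fold change was 0.83 (standard error 0.13, edgeR adjusted p = 0.0131) without that library and 0.40 (edgeR adjusted p = 0.727) with it. Of all 50-base stretches of their transcripts, 12.1% of those of Cbr2 also occur in Gm11771 and 13.1% of those of Mgl2 in other genes, among them Clec10a, so their counts are less certain than those of the 10 genes, of whose stretches at most 0.488% were shared.

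With the replicate block, Cbr2 and Mgl2 passed the threshold (edgeR adjusted p = 0.0160 and 0.0270). Gas6 did not (edgeR adjusted p = 0.147). Replicates 3 and 4 have Ctrl libraries only, so the group effect in the block fit comes from replicates 1 and 2 of each group. The log2 fold changes of Cbr2 and Mgl2 were 0.765 and 1.082 with the block. Without Ctrl replicate 3 and the library labelled Ctrl replicate 4 they were 0.763 and 1.079. The calls without the library labelled Ctrl replicate 4 did not all hold with fewer libraries. When 1 more library was left out, the edgeR adjusted p of Gas6 was between 0.0714 and 0.184 whichever it was. That of Cbr2 passed the threshold without Ctrl replicate 2 or 3 and was 0.0572, 0.0646 and 0.103 without Ctrl replicate 1 and LSD1skm-/- replicates 1 and 2. That of Mgl2 passed without Ctrl replicate 1 or 3 and was 0.0539, 0.0826 and 0.148 without Ctrl replicate 2 and LSD1skm-/- replicates 1 and 2. None of the 3 genes was called without Ctrl replicates 1 and 2.

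The library labelled Ctrl replicate 4 thus lay beyond the other Ctrl libraries on the LSD1skm-/- side for Mgl2, Gas6 and Cbr2. Of the fibroblast markers, the collagens, Lum and Pdgfra also had that library beyond the other Ctrl libraries on the LSD1skm-/- side. Lum had 9.75 to 12.3 CPM in Ctrl replicates 1 to 3 and 15.4 CPM in that library. In LSD1skm-/- muscle Lum had 16.4 and 20.7 CPM. Pdgfra had 14.35 to 15.6 CPM in Ctrl replicates 1 to 3 and 16.4 CPM in that library. In LSD1skm-/- muscle Pdgfra had 18.75 and 20.3 CPM. Col3a1 had 101.7 to 107.4 CPM in Ctrl replicates 1 to 3, 227.1 CPM in the library labelled Ctrl replicate 4 and 169.8 and 204.3 CPM in LSD1skm-/- muscle. Dcn, with 220.2 CPM in that library, stayed within the 195.7 to 232.9 CPM of Ctrl replicates 1 to 3 there and had 267.8 and 297.5 CPM in LSD1skm-/- muscle. The whole list of 6 genes summed to 457.9, 430.0 and 475.8 CPM in Ctrl replicates 1 to 3, 699.2 CPM in the library labelled Ctrl replicate 4 and 607.7 and 717.4 CPM in LSD1skm-/- muscle. Fibroblasts can also express Gas6, and the part of fibroblasts in these values was not tested. Of the 6 fibroblast markers, 2 were called higher in LSD1skm-/- muscle without the library labelled Ctrl replicate 4. In that fit 4.36% of all tested genes were.

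Of 13 tested complement genes outside C1q none passed the adjusted threshold in the 3 fits, and the median log2 fold change was 0.06 with all 6 libraries. Cfd had the lowest value, -3.54 (edgeR adjusted p = 0.557), with 64.3, 66.7, 3.91 and 84.4 CPM in Ctrl replicates 1 to 4 and 2.11 and 7.21 CPM in LSD1skm-/- muscle. It passed the threshold with all rows of at least 1 count (edgeR adjusted p = 0.00750). With the replicate block it passed too (edgeR adjusted p = 4.6e-07). It also passed without Ctrl replicate 3 and the library labelled Ctrl replicate 4 (edgeR adjusted p = 0.00493). The group effect of the block fit and of this fit comes from replicates 1 and 2 of each group. Cfd encodes adipsin, a protease of the alternative pathway that fat cells make. The 6 adipocyte markers summed to 287.2, 239.6, 167.9 and 407.0 CPM in Ctrl replicates 1 to 4. In LSD1skm-/- muscle they summed to 164.1 and 170.3 CPM, so Ctrl replicate 3 was low in Cfd and in this sum. Fabp4 made up most of each sum. Adipoq had 12.8, 9.70, 0.783 and 19.6 CPM in Ctrl replicates 1 to 4 and 0.126 and 0.558 CPM in LSD1skm-/- muscle. Plin1, Cidec, Lep and Retn were likewise lowest in Ctrl replicate 3 and LSD1skm-/- muscle.

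Of 11 tested genes of the MHC class II pathway beyond the 3 described, only Lgmn was called higher without the library labelled Ctrl replicate 4. In that fit 4.36% of all tested genes were called higher in LSD1skm-/- muscle. Lgmn encodes legumain, a lysosomal protease that trims the invariant chain and antigens. It had 31.0, 28.9 and 27.4 CPM in Ctrl replicates 1 to 3, 42.8 CPM in the library labelled Ctrl replicate 4 and 42.4 and 50.8 CPM in LSD1skm-/- muscle, and its log2 fold change was 0.68 (standard error 0.12, edgeR adjusted p = 0.0187) without that library and 0.52 (edgeR adjusted p = 0.557) with it. With LSD1skm-/- replicate 2 or Ctrl replicate 1 also left out, the edgeR adjusted p was 0.125 and 0.0528. The median of the 11 genes was 0.06 with all 6 libraries and 0.16 without the library labelled Ctrl replicate 4. H2-Eb1, named for its promoter, had 26.3, 21.4, 8.75 and 15.4 CPM in Ctrl replicates 1 to 4 and 13.9 and 20.9 CPM in LSD1skm-/- muscle, the order of H2-Aa and H2-Ab1 with LSD1skm-/- replicate 1 just below the library labelled Ctrl replicate 4.

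Further class II genes, named after their values were seen, did not share 1 order across libraries. H2-Ob, a chain of the modulator H2-O, which B cells express, had 4.57 and 4.87 CPM in Ctrl replicates 1 and 2. It had 0.116 to 0.274 CPM elsewhere. Ciita, the class II coactivator, had 2.49 and 1.54 CPM there and 0.232 to 0.505 CPM elsewhere, below the count needed for the test. Ctss, a protease that trims the invariant chain, had 9.58 and 8.10 CPM there and 2.61 to 7.18 CPM elsewhere, with the highest of these in LSD1skm-/- replicate 2. H2-DMa, a chain of the molecule that loads peptides, had 4.14 and 3.05 CPM there, 1.42 and 5.19 CPM in Ctrl replicate 3 and the library labelled Ctrl replicate 4, and 4.35 and 5.74 CPM in LSD1skm-/- muscle. For H2-Ob and Ciita the rest of the libraries were a small part of Ctrl replicates 1 and 2, unlike for Ctss, H2-DMa and the 3 class II genes described above.

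Of 16 tested genes of the MHC class I pathway, which shows peptides to CD8+ T cells, none passed the adjusted threshold in the 3 fits. The highest value with all 6 libraries was that of Pdia3, a disulfide isomerase of the peptide loading complex, 0.15 (edgeR adjusted p = 0.694). The lowest was that of H2-Q6, a nonclassical class I gene, -1.72 (edgeR adjusted p = 0.557), with 2.32, 3.33, 1.16 and 2.47 CPM in Ctrl replicates 1 to 4 and 0.599 and 0.798 CPM in LSD1skm-/- muscle. H2-Q6 passed the threshold with all rows of at least 1 count (edgeR adjusted p = 0.0368). It passed with DESeq2 without the library labelled Ctrl replicate 4 (DESeq2 adjusted p = 0.0119). With the replicate block it passed too (edgeR adjusted p = 0.00117). It also passed without Ctrl replicate 3 and the library labelled Ctrl replicate 4 (edgeR adjusted p = 0.0139). The group effect of the block fit and of this fit comes from replicates 1 and 2 of each group. The groups did not overlap in H2-Q6, nor in 17.8% of all tested genes with all 6 libraries. Class I genes are also near copies of each other, so counts of single ones are uncertain.

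**Figure D5:**
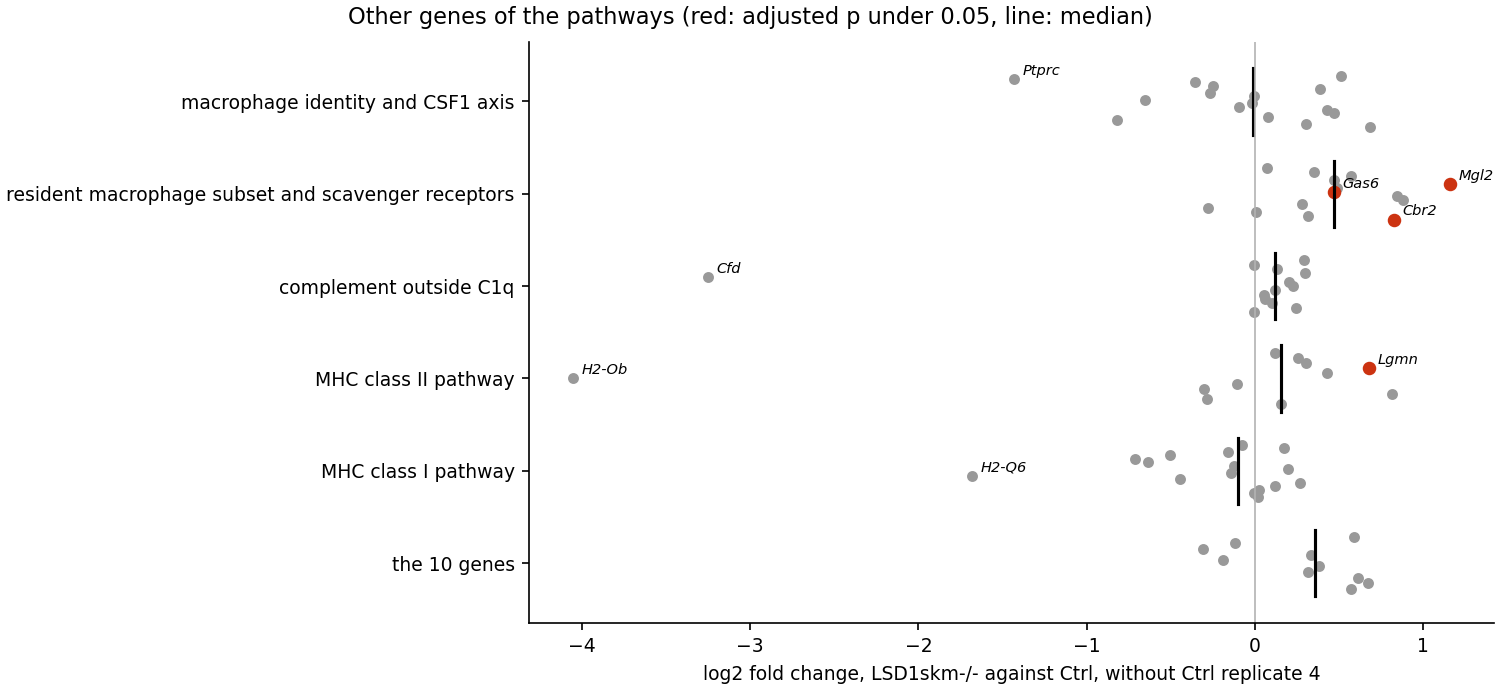
Log2 fold change without the library labelled Ctrl replicate 4, LSD1skm-/- against Ctrl (horizontal axis), of the tested genes of 5 pathway lists and of the 10 genes (rows). Each point is a gene, lines are medians, and red points have an edgeR adjusted p under 0.05. Cbr2, Mgl2, Gas6 and Lgmn are the red points, and none of the 10 genes is red.

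Markers of other cells did not share 1 order across libraries. Red blood cell genes summed to 43.7, 28.2, 36.6 and 52.2 CPM in Ctrl replicates 1 to 4. In LSD1skm-/- muscle they summed to 64.1 and 65.8 CPM. Of these 5 genes, 2 were called higher in LSD1skm-/- muscle without the library labelled Ctrl replicate 4, beside 4.36% of all tested genes. Endothelial markers summed to 158.0 to 210.3 CPM in Ctrl and to 138.9 and 136.9 CPM in LSD1skm-/- muscle, with none called. Dendritic cell markers summed to 7.58 to 9.32 CPM in Ctrl and 5.92 and 6.67 CPM in LSD1skm-/- muscle, most of it from Zbtb46, which endothelial cells also express, while each of the other 6 was below 1 CPM in every library. Neutrophil markers summed to 0.261 to 1.85 CPM and mast cell markers to 3.59 to 7.98 CPM over all libraries. Their part in the levels of the 10 genes was not tested.

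The genes whose pattern was most like the mean of the 10 standardized genes over the 6 libraries were Usp18, Mrpl34, Ndufaf1, Rnf5, Prdx3, Nr2c2ap, Slc25a47, Chchd1, Mrpl24 and Mrpl15, with r from 0.979 to 0.993. Their highest library was only 1.17 to 1.65 times the lowest, less than for any of the 10 genes, and none was called in any of the 3 fits. With scaling by library size alone 2 of these 10 were again among the nearest, so the list depends on the scaling. Against the 3 MHC class II genes alone, Mrps18b had the highest r, 0.986, with its highest library only 1.12 times its lowest, and H2-Eb1 followed with 0.984 and a range of 3.005 times. Next came 1300002E11Rik, Mrm2 and Cst3, with r from 0.974 to 0.982 and ranges of 1.31 to 1.85 times, and then Ctss, Lyz2 and H2-DMb1, with r from 0.969 to 0.971 and ranges of 2.71 to 3.67 times.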

How the data were processed

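Libraries were made from polyA RNA per the labels. Per the study's methods, sequencing was single-end with 50 bases per read. The authors aligned the reads to the mouse genome (mm10), discarded reads without a unique position and deposited raw counts per gene. The aligner is not given in the sources used here. The library kit marks strand, and whether counting used it is not given. The deposited counts were used as they are, and rows with a mean above 50 over the 6 libraries were tested with edgeR 4.0.16 (TMM, quasi-likelihood test, group as the only term, Benjamini-Hochberg over 11364 rows) in R 4.3.3. DESeq2 1.42.0, other scalings and filters, a replicate block and leaving out libraries were alternatives. log2 CPM used a prior count of 2. The test was tried on simulated data. No 2 libraries were repeats of each other (their counts differed by chi-square values of 32.9 to 127 per degree of freedom).

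The members and lists were chosen with earlier results of these data known. Named genes are the 10 members, from each list the called genes or else the highest and lowest fold change, the 10 most alike in pattern, and Kdm1a. Coordinates and shared stretches of 50 bases come from GENCODE vM21 on GRCm38, promoters from RefSeq. At 30654828 to 41278769 counts per library, counting error adds to the spread for genes near 50 counts, and the small number of libraries limits precision. The values of some genes of these lists are not reported here.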

Additional observations from a re-analysis of the deposited data

Results flagged for a closer look

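Of 42 results examined for a Ctrl library far from the other 3, 2 had one, and chance gives about 1 in 20. The gap of the library labelled Ctrl replicate 4 to its nearest neighbor was 0.88 of the Ctrl range for Kdm1a on the log2 scale. For Cfd, the adipsin gene, Ctrl replicate 3 stood apart with a gap of 0.91 of the range. None of the 10 macrophage and antigen presentation genes met this rule, and their largest gap was that of Csf1r, 0.77 of the Ctrl range.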

How the results depend on the processing

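No member was called under any of the alternatives at an adjusted p of 0.05. The lowest adjusted p of any member was 0.0553 (edgeR), for H2-Aa with a log2 fold change of -0.67. That fit left out Ctrl replicate 3 and the library labelled Ctrl replicate 4. With the replicate block the edgeR adjusted p of H2-Aa was 0.0596 (log2 fold change -0.67). Both fits take the group effect from replicates 1 and 2 of each group, as replicates 3 and 4 have Ctrl libraries only. The study's rule, applied to the edgeR p and not to that of DESeq2, took 1 member with all 6 libraries. The count of all genes called was 46 with DESeq2, 149 with all rows of at least 1 count, 632 with the replicate block, 0 to 612 with libraries left out, 1056 with DESeq2 without the library labelled Ctrl replicate 4, and 717 and 1724 by the study's rule with and without that library. Same-numbered replicates did not deviate together (r = -0.23 and -0.03 over genes), so the block rests on shared numbers only. The median log2 fold change of the 10 genes was -0.063 to 0.73 with libraries left out. Values that changed sign were those of Cd74 (0.60), H2-Aa (0.49), H2-Ab1 (0.62) and Ptprc (0.50) without Ctrl replicates 1 and 2, of H2-Ab1 (0.005) with scaling by library size and of Slc25a47 (-0.009) with the replicate block. The cause was not tested. Signs also changed with libraries left out in other ways. In those fits values ranged from -0.14 to 0.64 for Csf1r and from -0.41 to 0.83 for Cd68. The range was -0.54 to 0.16 for Cd74, -0.67 to 0.055 for H2-Aa and -0.48 to 0.24 for H2-Ab1. It was -0.066 to 0.32 for Usp18, -0.009 to 0.24 for Rnf5 and -0.042 to 0.27 for Nr2c2ap. For Slc25a47 it was -0.06 to 0.17 and for Mrpl24 -0.029 to 0.15. Of the 10 genes most alike in pattern, 2 remained with scaling by library size.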
